A study of Mus musculus with 46 samples.

Results

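Liver zonation markers are genes whose transcripts are known to be concentrated at one end of the liver lobule. The 10 genes described here were chosen by symbol from 25494 rows of the count table. They comprise 6 pericentral genes (Glul, Oat, Slc1a2, Axin2, Lgr5 and Tbx3) and 4 periportal genes (Gls2, Hal, Sds and Cdh1). Each matched 1 row, and all 10 passed the filter on low counts that left 13494 rows for testing.

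Livers came from male C57BL/6 mice, with no engineered allele named in the labels, that were acclimated on normal chow and then fed a lipid-rich diet (LD, labelled high fat diet) or a carbohydrate-rich diet (CD, labelled low fat diet) for several months. RNA-seq of ribosomal RNA-depleted RNA covered 5 mice per diet. Peaks of H3K27ac, a histone mark of active promoters and enhancers, came from 3 livers per diet, and peaks of the transcription factors Hnf4α and C/EBPα from 2 livers per diet each. Promoter capture Hi-C (PCHi-C), which lists the fragments that a promoter contacts, came from replicates that the authors had merged per diet. The diets differed in lipid and in carbohydrate together and no chow-fed group was compared, so that a diet difference cannot be assigned to 1 nutrient. The authors report that LD mice also became obese, with heavier livers of altered histology, and these cannot be told apart from diet.

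Blood enters the lobule at the portal tract and leaves at the central vein, and hepatocytes along this path divide the metabolic work. Periportal hepatocytes are known for gluconeogenesis, urea synthesis and amino acid breakdown, whereas a thin pericentral layer captures the remaining ammonia as glutamine. Wnt ligands from endothelial cells of the central vein maintain the pericentral program through β-catenin. These were samples of whole liver, so that the position of a transcript was not measured, and fewer cells of a type cannot be told apart from less RNA per cell.

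The periportal genes were lower on LD, and the pericentral genes did not move as a group. All 4 periportal genes were called lower on LD, with log2 fold changes (LD over CD) from -0.46 for Gls2 to -1.30 for Cdh1. Of the 6 pericentral genes, Glul was called higher (log2 fold change 0.40), Tbx3 was called lower (-0.51) and Oat, Slc1a2, Axin2 and Lgr5 were not called. A call required an adjusted p under 0.05 and a fold change above 1.2 by the quasi-likelihood test of edgeR, adjusted by Benjamini-Hochberg over the 13494 rows. Over all rows 13.8% were called higher and 11.1% lower, so that 1 of 10 members called higher was near the background and 5 of 10 called lower was above it. The median log2 fold change was -0.71 over the periportal genes, 0.01 over the pericentral genes and -0.0019 over all rows. For 3 members (Gls2, Hal and Cdh1) all LD mice lay under all CD mice, which held for 8.35% of rows, and for 0 members all LD mice lay above all CD mice, which held for 10.2%.

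**Figure D1:**
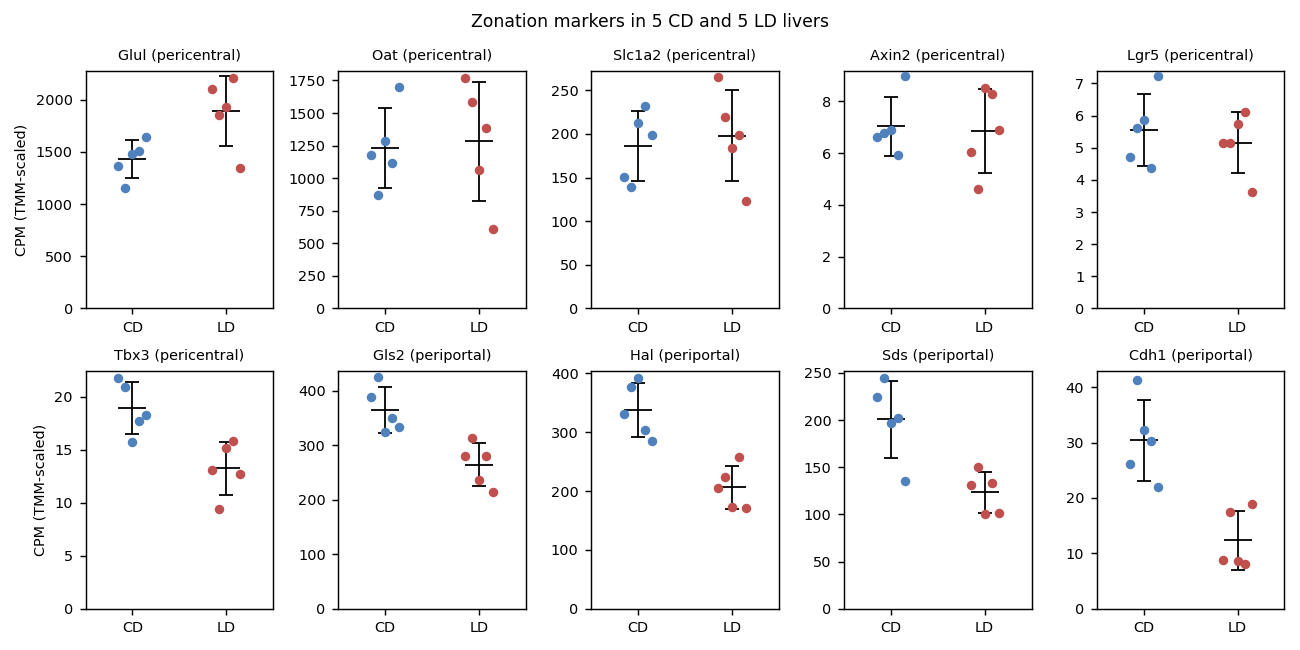
CPM (TMM-scaled, linear axes from 0) of the 10 zonation markers in 5 CD and 5 LD mice, each point 1 mouse, with mean and SD. All LD points lie under all CD points for Gls2, Hal and Cdh1, and the diets overlap for the other 7 genes.

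Transcript levels spanned a wide range. On the scale of TPM, which corrects for transcript length, Glul averaged 1091 ± 235 (SD, n = 10 mice of both diets) and Oat 1071 ± 307. The ranges of these highest members overlapped and lay above those of all other members. Sds followed at 255 ± 74.6 TPM, Gls2 at 232 ± 42.0 and Hal at 179 ± 48.6, each overlapping the next. Slc1a2, at 29.4 ± 6.77 TPM, overlapped neither neighbour. Cdh1 (8.85 ± 4.58 TPM), Tbx3 (6.09 ± 1.27), Axin2 (3.01 ± 0.576) and Lgr5 (2.09 ± 0.356) were the lowest, with ranges that overlapped from each to the next. The order depended on diet where members were close, since Oat (1024 TPM) was above Glul (915 TPM) in the CD means and Gls2 (200.6 TPM) and Sds (200.2 TPM) were level in the LD means.

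Glul, at chr1:155747059-155756853 (mm9, plus strand), encodes glutamine synthetase, which joins ammonia to glutamate in the last hepatocytes before the central vein. Its CPM in LD mice 1 to 5 was 2104, 1852, 1932, 2211 and 1347, and in CD mice 1 to 5 it was 1365, 1157, 1481, 1506 and 1639. LD mice 1 to 4 exceeded all CD mice, and LD mouse 5 lay under 4 of the 5 CD mice. The log2 fold change was 0.40 ± 0.13 (SE, adjusted p = 0.0313, edgeR). Leaving out any 1 of LD mice 1, 3 and 4 or CD mice 1, 2 and 3 ended the call, with adjusted p from 0.0504 to 0.0782 in edgeR.

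The highest factor locus near Glul was an Hnf4α locus just upstream of its start, at chr1:155746677-155746915, in an intron of the transcript model 5830403L16Rik (GENCODE vM1). A locus is a stretch with overlapping peaks in 2 or more libraries. Its central 200 bases are printed on the plus strand, 5′ to 3′, as the promoter-proximal stretch where the diets separated. Here and below, capitals mark matches to the Hnf4α motif CAAAGNNCA or the C/EBP motif TTGCNNAA on either strand, and this stretch holds neither.
Glul locus: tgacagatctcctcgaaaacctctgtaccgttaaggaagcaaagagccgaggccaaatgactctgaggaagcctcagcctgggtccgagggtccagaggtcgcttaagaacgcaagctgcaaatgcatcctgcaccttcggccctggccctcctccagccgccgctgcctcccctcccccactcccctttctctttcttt

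Hnf4α peak heights at this Glul locus were 29.2 and 35.8 normalized tags in the LD livers and 17.8 and 21.8 in the CD livers. The first CD library of Hnf4α stood apart, with 35143 peaks of median height 15.2 tags against 44247 to 47992 peaks of 19.2 to 21.5 in the others, and the part of this in the Hnf4α heights here and below was not tested. Both LD livers were higher at Glul, and no test was made of the factors, since the exact permutation test of 2 livers against 2 cannot give a p under 0.333. H3K27ac peaks covered 32.5%, 36.5% and 32.9% of the Glul gene body with 20 kb on either side in the LD livers and 25.7%, 29.3% and 28.1% in the CD livers. The ranges did not overlap (34.0% ± 2.21 against 27.7% ± 1.84, SD, n = 3, exact permutation p = 0.1, two-sided, the smallest that 3 against 3 allows). By number of peaks the order was the reverse, with 5, 5 and 5 in LD and 5, 6 and 6 in CD, overlapping. An H3K27ac locus downstream of Glul, at chr1:155760800-155761799 and centred 14.2 kb from the start, had a peak in all 3 LD livers and in 0 CD livers. The highest C/EBPα locus near Glul, at chr1:155748597-155748911 in an intron, had 6.5 and 0 tags in LD and 24 and 0 in CD, overlapping. A lower C/EBPα locus at -4.69 kb (negative distances are upstream of the start) had a peak of 7.5 tags in both LD livers and no peak in CD. Those LD peaks stood at the 21.9 to 25.3 percentile of their libraries.

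Oat and Slc1a2 handle glutamate beside glutamine synthetase, and neither was called. Oat, ornithine aminotransferase, at chr7:139749158-139768081 on the minus strand, had 1768, 1583, 1066, 1388 and 612 CPM in LD mice 1 to 5 and 1178, 868, 1288, 1114 and 1702 CPM in CD mice 1 to 5. The diets overlapped widely, and both the lowest and the highest of the 10 values came from LD mice (log2 fold change 0.06 ± 0.27, SE, adjusted p = 0.892, edgeR). Slc1a2, a glutamate transporter, at chr2:102498840-102630941 on the plus strand, had 265, 219, 183, 198 and 123 CPM in LD mice 1 to 5 and 151, 139, 212, 232 and 198 CPM in CD mice 1 to 5. Its diets overlapped as well (0.09 ± 0.20, SE, adjusted p = 0.781, edgeR). Neither direction was stable, since with 1 mouse left out the log2 fold change ran from -0.08 to 0.24 for Oat, turning negative without LD mouse 1, LD mouse 2 or CD mouse 2, and from -0.04 to 0.22 for Slc1a2, turning negative without LD mouse 1 or CD mouse 2. LD mouse 5 was the lowest LD mouse for Glul, Oat, Slc1a2 and Lgr5, and also for the periportal genes Gls2 and Hal.

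The highest C/EBPα locus near Oat, at chr7:139763248-139763562 in an intron, had 24 and 23 tags in LD and 86 and 57.5 in CD, higher in both CD livers. An Hnf4α locus overlapping it, at chr7:139763312-139763592, had 38.2 and 15.8 tags in LD and 22.2 and 54 in CD, and there the diets overlapped. The highest loci of both factors near Slc1a2 also coincided, in an intron 87.1 kb from the start. There Hnf4α had 26.5 and 31 tags in LD and 23.8 and 49.8 in CD, and C/EBPα 49 and 51 in LD and 56 and 42 in CD, overlapping for both. In another intronic stretch of Slc1a2, 47.6 kb from the start, Hnf4α had a peak of 5.25 tags in both LD livers and none in CD. An overlapping C/EBPα locus had 11.5 and 8.5 tags in CD and no peak in LD. These Hnf4α peaks stood at the 6.39 to 8.28 percentile of their libraries, among the lowest called, and the C/EBPα peaks at the 46.1 to 49.5 percentile. The share of all loci with peaks in 1 diet alone is not given here. A further Hnf4α locus of Slc1a2, at 105 kb, had peaks in LD alone, of 11 and 9.5 tags.

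Axin2, Lgr5 and Tbx3 belong to the Wnt response and identity of pericentral hepatocytes. Axin2, a feedback inhibitor of β-catenin, at chr11:108781663-108812095 on the plus strand, had 6.03, 4.61, 8.50, 8.28 and 6.91 CPM in LD mice 1 to 5 and 6.63, 6.76, 6.90, 5.91 and 8.97 CPM in CD mice 1 to 5. Lgr5, a receptor for R-spondins, at chr10:114887370-115024836 on the minus strand, had 5.14, 5.16, 5.74, 6.13 and 3.63 CPM in LD mice 1 to 5 and 4.72, 5.61, 5.87, 4.38 and 7.22 CPM in CD mice 1 to 5. Both genes overlapped between the diets, with log2 fold changes of -0.04 ± 0.16 (SE, adjusted p = 0.888) and -0.11 ± 0.16 (SE, adjusted p = 0.655) in edgeR. With 1 mouse left out the log2 fold change of Axin2 ran from -0.13 to 0.08, turning positive without LD mouse 1, LD mouse 2 or CD mouse 5, and that of Lgr5 from -0.18 to 0.00074, reaching the latter without CD mouse 5. The levels rested on 130 to 308 counts per mouse.

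The highest Hnf4α locus of Axin2, in an intron 15.9 kb from the start, had 48.8 and 37.8 tags in LD and 31.8 and 67 in CD, overlapping. Its highest C/EBPα locus, downstream at 35.8 kb, had 11 and 9 tags in LD and 14.5 and 13 in CD, higher in CD. Lgr5 had its highest C/EBPα locus in an intron at 26.4 kb, with 27.5 and 22.5 tags in LD and 46.5 and 36.5 in CD, again higher in CD. Its highest Hnf4α locus, at 0.854 kb in the first kilobase of the gene, had 12.8 and 16.2 tags in LD and 8.25 and 20.8 in CD, overlapping.

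Tbx3, a T-box transcription factor at chr5:120120871-120134733 on the plus strand, was the pericentral gene that fell. Its CPM in LD mice 1 to 5 was 13.1, 9.41, 15.1, 15.8 and 12.7, and in CD mice 1 to 5 it was 21.8, 20.9, 15.8, 17.7 and 18.2. LD mouse 4 lay just above CD mouse 3, and all other LD mice lay under all CD mice. The log2 fold change was -0.51 ± 0.13 (SE, adjusted p = 0.0111, edgeR).

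No C/EBPα locus was found near Tbx3. Its highest Hnf4α locus lies in an intron 5.60 kb from the start, at chr5:120126359-120126580, and its central 200 bases are printed on the plus strand because they hold 1 CAAAGNNCA match, read on the minus strand.
Tbx3 locus: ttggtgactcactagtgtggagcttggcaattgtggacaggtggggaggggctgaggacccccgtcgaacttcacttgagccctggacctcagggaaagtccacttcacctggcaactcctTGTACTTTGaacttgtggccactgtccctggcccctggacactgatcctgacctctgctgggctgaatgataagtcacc

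Hnf4α heights at this Tbx3 locus were 141 and 113 tags in LD and 68.5 and 149 in CD. The LD livers lay between the CD livers, and all 4 peaks stood at or above the 95.3 percentile of their libraries. H3K27ac covered 16.3%, 16.7% and 17.5% of the Tbx3 window in LD and 20.1%, 16.3% and 16.7% in CD, overlapping (exact permutation p = 0.9).

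Gls2, the liver-type glutaminase that releases ammonia from glutamine, lies at chr10:127631691-127647060 on the plus strand. Its CPM in LD mice 1 to 5 was 280, 312, 236, 280 and 214, and in CD mice 1 to 5 it was 389, 425, 325, 350 and 333. The diets did not overlap, with LD mouse 2 and CD mouse 3 nearest to each other (log2 fold change -0.46 ± 0.11, SE, adjusted p = 0.00658, edgeR). The ratio of Glul to Gls2 CPM, which sets glutamine synthesis beside glutamine breakdown at the transcript level and uses the same values, ranged from 5.93 to 8.20 in LD and from 2.72 to 4.92 in CD.

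The highest Hnf4α locus near Gls2 lies in an intron 7.28 kb from the start, at chr10:127638846-127639098, and its central 200 bases on the plus strand hold 1 CAAAGNNCA match, read on the minus strand.
Gls2 locus: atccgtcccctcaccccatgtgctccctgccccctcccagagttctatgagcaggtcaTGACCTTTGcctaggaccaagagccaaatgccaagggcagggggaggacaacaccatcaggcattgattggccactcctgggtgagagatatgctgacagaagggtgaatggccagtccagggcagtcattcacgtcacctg

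Hnf4α heights at this Gls2 locus were 81.2 and 62.8 tags in LD and 63.2 and 120 in CD, which overlapped. A C/EBPα locus overlaps it, with 34.5 and 28.5 tags in LD and 61.5 and 53 in CD, higher in both CD livers. The highest C/EBPα locus of the window, at chr10:127647942-127648256 in an exon of the neighbouring gene Spryd4, had 34.5 and 36 tags in LD and 89 and 58.5 in CD, also higher in CD. H3K27ac covered 51.7%, 51.3% and 47.0% of the Gls2 window in LD and 49.5%, 52.7% and 50.9% in CD, overlapping (exact permutation p = 0.7).

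Hal, histidine ammonia-lyase, takes the first step of histidine breakdown and lies at chr10:92951513-92979506 on the plus strand. Its CPM in LD mice 1 to 5 was 205, 224, 172, 257 and 171, and in CD mice 1 to 5 it was 331, 376, 393, 304 and 286. The diets did not overlap, and the log2 fold change was -0.71 ± 0.12 (SE, adjusted p = 0.00113, edgeR), the smallest adjusted p among the members. Of the later enzymes of the same pathway, Amdhd1, whose gene lies within 20 kb of Hal, also fell (log2 fold change -0.36 ± 0.09, SE, adjusted p = 0.0108, edgeR), and Uroc1 (0.10, adjusted p = 0.427) and Ftcd (-0.23, adjusted p = 0.0341, under the fold change a call required) were not called.

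Hal had the locus of highest mean height of either factor among the members, and both loci are printed on the plus strand. The Hnf4α locus lies in an intron 27.3 kb from the start, at chr10:92978725-92978947, and 190 of its central bases are shown, with 1 CAAAGNNCA match. The start site locus, at chr10:92951259-92951522 for Hnf4α and chr10:92951208-92951522 for C/EBPα, holds 1 TTGCNNAA match.
Hal intron locus: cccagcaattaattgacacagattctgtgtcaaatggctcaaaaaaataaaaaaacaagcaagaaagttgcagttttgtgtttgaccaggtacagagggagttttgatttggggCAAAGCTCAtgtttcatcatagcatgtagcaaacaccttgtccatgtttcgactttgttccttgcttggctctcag
Hal start site locus: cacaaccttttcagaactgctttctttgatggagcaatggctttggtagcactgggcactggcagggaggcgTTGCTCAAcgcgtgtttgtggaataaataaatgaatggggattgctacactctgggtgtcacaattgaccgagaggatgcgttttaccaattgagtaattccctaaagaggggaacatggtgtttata

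At the intron locus of Hal, Hnf4α had 184 and 172 tags in LD and 140 and 302 in CD, with the LD livers between the CD livers and all 4 peaks at or above the 99.3 percentile of their libraries. At the start site of Hal, C/EBPα had 148 and 150 tags in LD and 277 and 160 in CD, higher in both CD livers and at or above the 99.8 percentile. Hnf4α at the start site had 57.2 and 52 tags in LD and 44.5 and 94.8 in CD, overlapping. A separate Hnf4α locus at -1.2 kb, chr10:92950192-92950431, had 25.2 and 26.5 tags in LD and no peak in CD, the opposite order to that of the transcript.

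H3K27ac coverage of the Hal window was 34.3%, 36.3% and 27.2% in LD and 48.1%, 63.1% and 52.8% in CD. All 3 CD livers were higher (32.6% ± 4.78 against 54.7% ± 7.67, SD, n = 3, exact permutation p = 0.1), which was the largest difference in coverage among the members. A locus in the gene body, at chr10:92961200-92965199, had a peak in all 3 CD livers and in 0 LD livers. The window also holds parts of Amdhd1 and Lta4h, whose share of the coverage was not separated.

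Sds, serine dehydratase, turns serine into pyruvate and lies at chr5:120926556-120933914 on the plus strand. Its CPM in LD mice 1 to 5 was 131, 151, 100.5, 133 and 102, and in CD mice 1 to 5 it was 224, 245, 197, 202 and 135. CD mouse 5 lay under LD mouse 2, and the other 4 CD mice lay above all LD mice (log2 fold change -0.70 ± 0.16, SE, adjusted p = 0.00628, edgeR). Its neighbour Sdsl, a serine dehydratase-like gene, fell too (log2 fold change -0.32 ± 0.10, SE, adjusted p = 0.0247, edgeR).

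The highest Hnf4α locus near Sds lies at -4.82 kb in an intron of Sdsl, at chr5:120921620-120921847. Its central 200 bases on the plus strand are printed because the diets separated there, and they hold neither motif as spelled.
Sds locus: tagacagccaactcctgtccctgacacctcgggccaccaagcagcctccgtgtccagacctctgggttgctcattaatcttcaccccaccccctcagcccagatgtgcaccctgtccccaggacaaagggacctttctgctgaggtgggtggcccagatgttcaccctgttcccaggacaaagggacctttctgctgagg

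Hnf4α heights at this Sds locus were 72.8 and 61 tags in LD and 90.2 and 139 in CD, higher in both CD livers. The same order held at -8.06 kb, with 29.5 and 22.2 tags in LD and 30.2 and 63.5 in CD, and at -3.67 kb, with 38.2 and 25.8 in LD and 44.8 and 84.8 in CD. The opposite order held at -13.2 kb, with 22 and 18.5 tags in LD and 8.75 and 16.8 in CD. The highest C/EBPα locus of the Sds window overlaps this last one and had 11.5 and 25.5 tags in LD and 29 and 14 in CD, overlapping. A C/EBPα locus in an intron of Sds, at chr5:120932566-120932816, had 7 and 12.5 tags in LD and no peak in CD.

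H3K27ac covered 45.6%, 54.7% and 44.8% of the Sds window in LD and 64.2%, 63.3% and 65.7% in CD. All 3 CD livers were higher (48.4% ± 5.52 against 64.4% ± 1.19, SD, n = 3, exact permutation p = 0.1). The window holds parts of Sdsl and Plbd2 as well.

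Cdh1, E-cadherin, joins epithelial cells and is made by bile duct cells too. The gene lies at chr8:109127250-109194147 on the plus strand and had the largest fold change of the 10 genes. Its CPM in LD mice 1 to 5 was 8.77, 17.4, 8.53, 8.13 and 18.9, and in CD mice 1 to 5 it was 26.2, 41.2, 32.3, 30.2 and 22.0. The diets did not overlap, and LD mice 2 and 5 stood above the other 3 LD mice (log2 fold change -1.30 ± 0.29, SE, adjusted p = 0.00870, edgeR). The summed level of 8 cholangiocyte markers was 5.12 to 11.5 CPM in LD and 7.94 to 12.1 CPM in CD, overlapping, and their part in the Cdh1 result was not tested.

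The highest Hnf4α locus near Cdh1 lies in an intron 30.3 kb from the start, at chr8:109157451-109157746. Its central 200 bases on the plus strand are shown as the highest of the intronic sites with peaks in all 4 livers, and they hold neither motif as spelled.
Cdh1 locus: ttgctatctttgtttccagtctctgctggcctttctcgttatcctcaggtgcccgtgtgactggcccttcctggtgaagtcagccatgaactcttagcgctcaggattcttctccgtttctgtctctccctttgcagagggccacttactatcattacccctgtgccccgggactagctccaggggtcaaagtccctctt

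Hnf4α heights at this Cdh1 locus were 40.8 and 41.2 tags in LD and 29 and 42.5 in CD, overlapping. At chr8:109130861-109131078, in an intron 3.72 kb from the start, Hnf4α had 13.8 and 16.2 tags in CD and no peak in LD. The highest C/EBPα locus, at 21.6 kb, had 15.5 and 25.5 tags in LD and 38.5 and 27 in CD, higher in both CD livers. H3K27ac covered 28.8%, 41.3% and 33.3% of the Cdh1 window in LD and 31.8%, 35.4% and 28.1% in CD, overlapping (exact permutation p = 0.6).

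**Figure D2:**
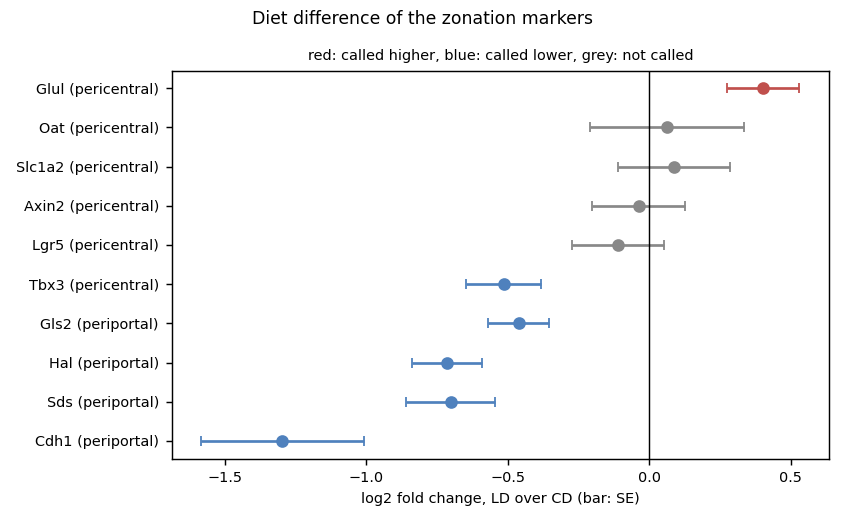
Log2 fold change of LD over CD with its SE for the 10 genes from edgeR (5 mice per diet; red called higher, blue called lower, grey not called). The 4 periportal genes lie between -0.46 and -1.30, Glul and Tbx3 lie on opposite sides of 0, and the SE bars of the other 4 pericentral genes cross 0.

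H3K27ac coverage separated the diets at 4 of the 10 genes, in both directions. Hal and Sds were lower in all LD livers (2 of 10, where 5.30% of 19138 genes showed this), and Glul and Lgr5 were higher in all LD livers (2 of 10, where 20.9% did, so near the background). Lgr5 coverage was low, at 4.17%, 3.16% and 3.72% in LD and 1.47%, 1.58% and 2.70% in CD. The LD libraries held more H3K27ac peaks over the genome (53821 to 56987) than the CD libraries (48156 to 51608), and the part of this in the coverage was not tested. Oat, Slc1a2 and Axin2 overlapped between the diets, with exact permutation p of 0.5, 0.2 and 0.4 (n = 3).

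**Figure D3:**
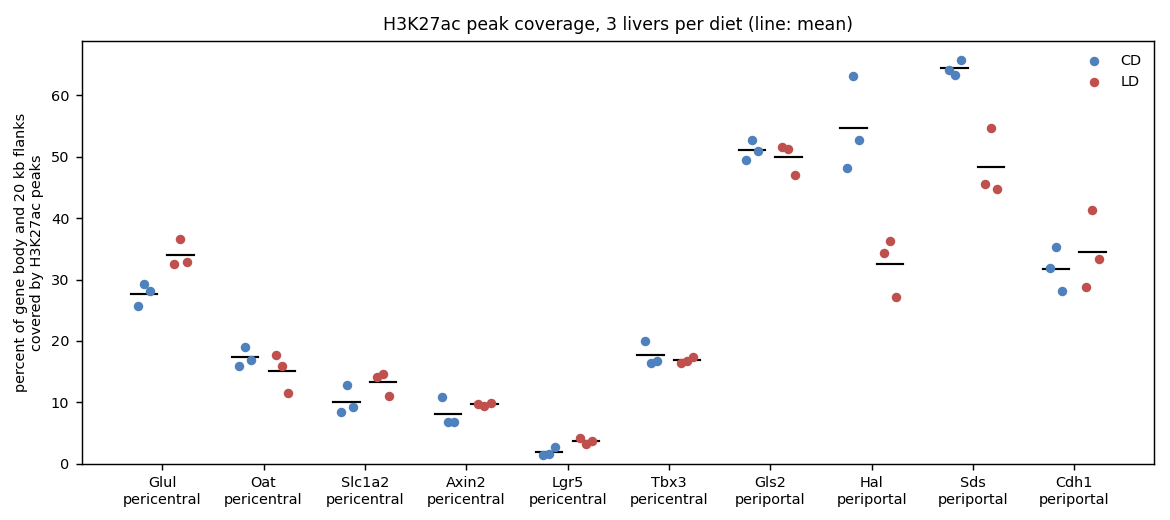
Percent of each gene body with 20 kb on either side covered by H3K27ac peaks, each point 1 of 3 livers per diet, with the mean as a line. CD points lie above LD points at Hal and Sds, LD points lie above CD points at Glul and Lgr5, and the diets overlap at the other 6 genes.

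Across the 10 windows, the number of Hnf4α peaks was higher in both LD livers at 1 gene (Slc1a2) and lower at 1 (Sds), where 9.68% and 5.63% of 18865 genes showed this. The highest Hnf4α peak was taller in both LD livers at 1 gene (Glul, where 15.0% of genes showed this) and taller in both CD livers at 1 (Sds, where 4.54% did). The number of C/EBPα peaks was higher in both LD livers at Sds and lower at Cdh1, where 9.85% and 13.2% of 21208 genes showed this. The highest C/EBPα peak was taller in both CD livers at 6 of 10 genes (Oat, Axin2, Lgr5, Gls2, Hal and Cdh1) and in both LD livers at 0, where 37.3% and 8.58% of genes showed this. The C/EBPα libraries differed by diet in themselves, with a tallest peak anywhere of 4688 and 5801 tags in LD and 1256 and 1167 in CD. They held 38281 and 39310 peaks in LD and 41713 and 46371 in CD. These peaks covered 9.07 and 9.87 Mb in LD and 13.1 and 13.3 Mb in CD. Median heights overlapped between the diets, at 11.5 and 12.5 tags in LD and 13 and 8.5 in CD. The part of these library differences in the peak numbers and heights near the members was not tested.

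**Figure D4:**
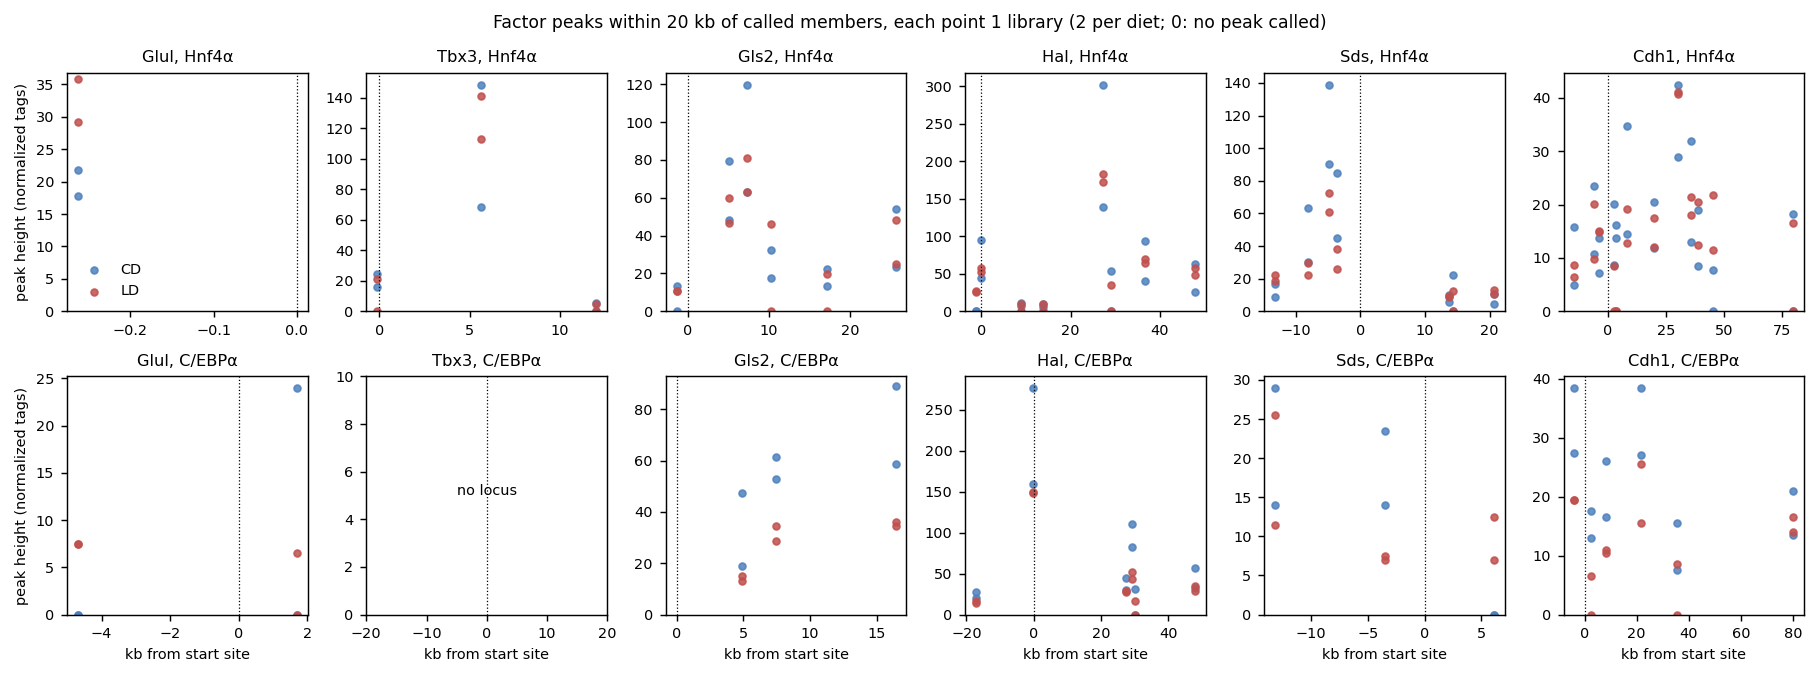
Height in normalized tags of Hnf4α (upper row) and C/EBPα (lower row) loci against distance from the start site in kb for the 6 called genes, each point 1 of 2 livers per diet, with 0 for no peak. Both CD points lie above both LD points at the Hnf4α locus at -4.82 kb of Sds and at the C/EBPα start site locus of Hal, and the order is the opposite at the Hnf4α locus of Glul.

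The motifs were searched in the central 200 bases of all loci on both strands. CAAAGNNCA lay in 15 of 56 Hnf4α loci near the members (26.8%) and in 23.0% of all 45827 Hnf4α loci. TTGCNNAA lay in 16 of 31 C/EBPα loci near the members (51.6%) and in 40.6% of all 32984. The letters of the motif of TCF, the partner of β-catenin, CTTTGAT or CTTTGAA, lay in 10 of the 56 Hnf4α loci (17.9%, against 13.1% of all) and in 6 of the 31 C/EBPα loci (19.4%, against 9.13% of all). In the printed stretches CTTTGAT occurs once at the Hal start site, upstream of the TTGCNNAA match, and CTTTGAA once at the Tbx3 locus, where it overlaps the CAAAGNNCA match. RefSeq promoters (GRCm38.p6) matched 5 of the 10 genes (Glul, Slc1a2, Oat, Hal and Axin2), and those of Hal and Slc1a2 held TTGCNNAA and CTTTGAT, found in 10.8% and 3.73% of 32851 promoters.

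Promoter contacts were counted at a CHiCAGO score, a measure of confidence, of at least 5, in 1 list per diet, so that no error can be given. The lists held 151203 interactions in LD and 149798 in CD. Glul had the most contacts of the members, 46 in LD and 54 in CD with 44 in both, and its best contact, 276 kb away in both diets, scored 20.9 in LD and 25.01 in CD. Many contacted fragments of Glul, and of Tbx3 and Hal, lie side by side, so the counts are of fragments and not of separate regions. The promoter fragment of Glul also holds Mir8114. Tbx3 had 26 in LD and 24 in CD with 19 in both, and its best contact, 787 kb away in both diets, scored 22.2 and 23.9 (LD and CD). The order of its counts turned at a score of at least 10 (6 in LD and 7 in CD) and within 500 kb (3 in LD and 7 in CD). Hal had 15 in LD and 16 in CD with 10 in both, and its best contact, 440 kb away in both diets, scored 18.7 in LD and 12.2 in CD.

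The other members had fewer contacts. Slc1a2 had 15 in LD and 10 in CD with 5 in both, and Axin2 had 12 and 7 with 6 in both. Median scores were near the cutoff of 5, at 5.6 in both diets for Slc1a2 and 6.23 in LD and 6.77 in CD for Axin2. The share of all interactions found in both lists is not given here, so a contact in 1 list alone is not read as a diet difference. Gls2 had 4 in LD and 2 in CD, with the fragment holding the Esyt1 start in both. Oat had 2 in LD and 3 in CD, with the fragment of Fam175b and Mettl10 in both, and Sds had 2 in LD and 4 in CD, with the fragments of Iqcd and Tpcn1 and of Ddx54 and Rita1 in both. At a score of at least 10 the order turned for Sds, with 1 in LD and 0 in CD. The promoter fragment of Sds also holds the start of Sdsl. Lgr5 had 1 contact in LD and 0 in CD, and no fragment with the Cdh1 start was in either list, so that whether its promoter was assayed cannot be told from them.

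**Figure D5:**
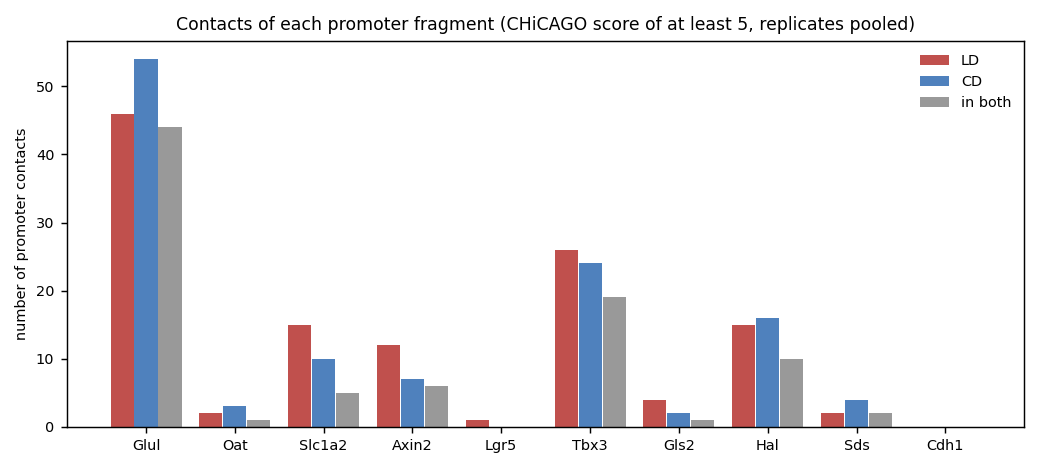
Number of promoter contacts of each gene in LD, in CD and in both lists (CHiCAGO score of at least 5, replicates merged by the authors, bars from 0). Glul has 46 in LD and 54 in CD with 44 in both, Tbx3 26 and 24 with 19 in both and Hal 15 and 16 with 10 in both.

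Other genes of the same zones were divided. Of 16 other pericentral genes 7 were called higher and 1 lower on LD, beside 13.8% and 11.1% of all rows, and the median of the list was 0.04 (log2 fold change). Rhbg, an ammonium transporter, rose (1.33 ± 0.22, log2 and SE, adjusted p = 0.00151), as did Aldh1a1, which oxidises retinal (0.84 ± 0.14, adjusted p = 0.000922), and Lect2, a secreted protein (0.61 ± 0.11, adjusted p = 0.00133), all in edgeR. Cyp1a2, a drug-metabolising enzyme, fell (-0.90 ± 0.11, adjusted p = 0.000107).

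Of 18 other periportal genes 6 were called lower and 3 higher, beside 11.1% and 13.8% of all rows, with a median log2 fold change of -0.20. Igfbp2, which binds insulin-like growth factors, fell (-1.79 ± 0.22, log2 and SE, adjusted p = 0.000319), as did Cps1, the entry enzyme of the urea cycle (-1.33 ± 0.19, adjusted p = 0.000545), and G6pc, the last step of glucose release (-1.2 ± 0.22, adjusted p = 0.00244), all in edgeR. Aldh1b1, a mitochondrial aldehyde dehydrogenase, rose (0.76 ± 0.14, adjusted p = 0.00174).

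Of 28 Wnt ligands, receptors and signal chain genes 11 were called lower and 0 higher, beside 11.1% and 13.8% of all rows, with a median log2 fold change of -0.31. These included the receptors Fzd7 (-0.53 ± 0.08, log2 and SE, adjusted p = 0.000606) and Fzd5 (-0.59 ± 0.10, adjusted p = 0.000651), the R-spondin receptor Lgr4 (-0.45 ± 0.07, adjusted p = 0.000623) and the signal transducer Dvl1 (-0.32 ± 0.06, adjusted p = 0.00205), in edgeR. Of 11 Wnt target genes 9 were tested, with Znrf3 (-0.44 ± 0.08, adjusted p = 0.0010) and Notum (-0.48 ± 0.14, adjusted p = 0.0254), both feedback inhibitors, called lower. Tnfrsf19 (0.72 ± 0.14, adjusted p = 0.00228) and the cyclin gene Ccnd1 (0.70 ± 0.19, adjusted p = 0.0205) were called higher in the same fit, so that 2 of 9 were called in each direction, beside the same shares. The Notum call was lost without any 1 of LD mice 4 and 5 and CD mice 3, 4 and 5, and that of Ccnd1 without CD mouse 4.

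Of 22 genes of glutamine, glutamate and ammonia handling 21 were tested, of which 2 were higher and 4 lower, beside the 13.8% and 11.1% of all rows. Gpt2, an alanine aminotransferase (0.62 ± 0.09, log2 and SE, adjusted p = 0.000268), and Slc1a4, a neutral amino acid transporter (1.01 ± 0.16, adjusted p = 0.000681), rose in edgeR. Slc38a2, another amino acid transporter (-0.74 ± 0.17, adjusted p = 0.00782), and Got1, an aspartate aminotransferase (-0.71 ± 0.19, adjusted p = 0.0181), fell. Of 16 histidine, serine and glycine enzymes 14 were tested, of which 2 were higher and 4 lower, beside the same shares. Besides Amdhd1, Gcat of threonine breakdown fell (-0.78 ± 0.10, log2 and SE, edgeR), and Srr, serine racemase (0.32 ± 0.07), and Hdc, which makes histamine from histidine (0.75 ± 0.19), rose.

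Calls among the markers of liver cell types are given beside the 13.8% of all rows called higher and the 11.1% called lower. Of 8 stellate cell markers 3 were called higher (Col1a1, Col3a1 and Dcn), with a summed level of 699 to 1013 CPM in LD and 591 to 730 CPM in CD. Of 8 Kupffer cell and macrophage markers 2 were called higher (Cd68 and Itgam), with 357 to 1021 CPM in LD and 350 to 660 CPM in CD. The Itgam call was lost without LD mouse 3 or any 1 of the CD mice, and its log2 fold change was 0.90 with all mice and 0.47 without LD mouse 2. Of 8 endothelial markers 1 was called higher (Lyve1), near that share, with 444 to 619 CPM in LD and 498 to 599 CPM in CD. Of 8 hepatocyte markers 7 were tested and 3 were called lower (Fgb, Ahsg and Serpina1a), with 81718 to 100802 CPM in LD and 86896 to 103662 CPM in CD. Each sum overlapped between the diets, none of the markers in the table was at 0 counts over all mice of a diet (single mice had 0 counts of the cholangiocyte markers Cldn4 and Cldn7), and their part in the members' differences was not tested.

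The genes most like the called members were sought by the root mean square difference of centred log2 CPM over the 10 mice, among 11515 genes. They were Acaa1a (0.12), Ppara (0.13) and Dhrs1 (0.13) for Glul, and Ank (0.14), Lsr (0.14) and Frat1 (0.15) for Tbx3. They were Trmo (0.09), Serpina1a (0.09) and Paics (0.10) for Gls2, and Lipc (0.14), F7 (0.15) and Tmem150a (0.15) for Hal. For Sds they were Agxt (0.17), Creld2 (0.18) and Stard13 (0.18), and for Cdh1 they were Inhba (0.29), Reck (0.31) and Lepr (0.34). These differences depend on the spread of the member itself over the mice, so they are not compared between members. That spread, the root mean square of centred log2 CPM, was 0.79 for Cdh1 and 0.29 to 0.43 for the other called members.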

How the data were processed

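The authors deposited raw counts per gene (STAR 2.5 and featureCounts 1.5.0-p1 on mm9, per the submitters' processing notes; RefSeq genes, counted by strand). The authors also deposited TPM values, scaled by transcript length and library total, which were used for levels between genes. Totals were 31707963 to 39012699 counts per mouse. H3K27ac peaks were called by the authors with SICER, and Hnf4α and C/EBPα peaks with HOMER, per liver; the deposited signal is the peak height in normalized tags. The deposited interaction score is CHiCAGO's, from merged replicates. Counts were tested with edgeR 4.0.16 (R 4.3.3; TMM, filterByExpr, quasi-likelihood); DESeq2 1.42.0, the study's tool, and limma 3.58.1 on TPM were alternatives. CPM was computed from TMM-scaled totals. On counts simulated for 13419 genes, 184 of 200 genes with 2-fold changes were recovered, with 10 false calls. Sequences came from the mm9 genome, without UTR bases. Beyond the members, named genes had the smallest p in each list or were nearest to a called member; named loci were the highest, those seen in 1 diet alone and others chosen after their values were seen. Members and lists were chosen with earlier results of these data known. The labels do not say that samples of different assays came from the same mice. The calls of single cholangiocyte markers are not reported here. Domain files and the authors' own comparisons were not used.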

Additional observations from a re-analysis of the deposited data

How the results depend on the processing

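The calls of Tbx3, Gls2, Hal, Sds and Cdh1 kept their direction and side of the threshold in 19 of 19 alternative fits each. Among these 19, the setting without a minimum fold change reused the main fit, so no call could be lost there. With the replicate block, Glul had a value of 0.39 (log2, adjusted p = 0.0588, edgeR) and 0 members were called higher; replicate numbers did not pair the mice (correlations of deviations from -0.11 to 0.22), and the block called 1818 genes higher and 1355 lower. Without one replicate, Glul ranged from 0.33 to 0.50 and 0 to 1 members were called higher. Against 1859 genes higher and 1498 lower in edgeR, limma called 2192 and 728 on log2(TPM + 1) and 2376 and 779 on log2(TPM + 0.1). Calls of Notum, Itgam, Ccnd1, Dvl1 and Znrf3 were lost in 8, 8, 2, 2 and 1 of 19 fits. By number of peaks, H3K27ac was higher in all LD livers at 0 genes and lower at 1, and Glul reversed to -0.667 peaks (LD minus CD). Members with more Hnf4α peaks in both LD livers were 3 with 50 kb flanks, 0 around the start site and 0 with peaks of at least the median height (1 to 3 without one replicate), and those with fewer were 0 with 10 kb flanks, 2 around the start site and 0 at the median height (1 to 4). For C/EBPα, more peaks were found at 0 genes at the median height and 0 by summed height (1 to 3), and fewer at 2 with 10 kb flanks, 2 with 50 kb, 0 around the start site, 2 at the median height and 5 by summed height (2 to 4). Contacts (LD minus CD) reversed for Tbx3 to -1 at a score of at least 10 and -4 within 500 kb, and for Sds to 1 at a score of at least 10. The cause of these shifts was not tested. The number of livers, 2 or 3 per diet, limits the factor and H3K27ac comparisons.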
